A study of Mus musculus with 6 samples.

Results

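Interferon response and major histocompatibility complex (MHC) class I genes were examined as a set of 40 listed mouse genes in 6 induced pluripotent stem (iPS) cell lines. The list was drawn up by function, with earlier results of these data known. It holds antiviral sensors, the type I interferon receptor and its transcription factors, interferon-induced effectors, and genes of antigen presentation. Each gene was represented by the brightest probeset that carries only its symbol. Of the 40 genes, 37 had such a probeset, out of 19938 genes measured in the same way, and Isg15, H2-K1 and H2-D1 did not. The question was whether iPS clones made with an shRNA against E-cadherin differ from control clones in an innate antiviral response.

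All 6 lines came from embryonic fibroblasts of OG2 mice, which carry an Oct4-driven green fluorescent reporter, and all received retroviruses for Sox2, Klf4, Oct4 and c-Myc. The control clones 2, 3 and 4 also received an shRNA against luciferase, and shECAD clones 4, 8 and 9 an shRNA against E-cadherin, so that both groups carried a viral vector, a hairpin and 4 exogenous factors. Cells were split onto feeders on day 6 and each line was picked as 1 colony on day 14. The labels say that feeders supported the cultures and were taken out ahead of extraction. Each line gave 1 whole-transcript array, and n = 3 clones per group throughout. Nothing in the labels says that the clones came from separate infections, and the p-values measure only the spread between these clones. No uninfected line and no line treated with interferon is among the 6, so that a response shared by both groups cannot be seen in the comparison.

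Cells detect viral RNA through the sensors RIG-I, MDA5 and TLR3, which signal through adaptors such as MAVS to IRF transcription factors and switch on type I interferon. Interferon binds its receptor, and a transcription factor complex that includes STAT2 and IRF9 then activates antiviral genes through a promoter element called the interferon-stimulated response element (ISRE). Type II interferon acts mainly through the gamma-activated site (GAS), and raises the genes that load peptides onto MHC class I, which show cell contents to T cells. Pluripotent cells are known for a weak interferon response and low MHC class I, both of which rise on differentiation.

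The promoters of several members carry these elements, and 6 are shown to set members that lay higher beside known interferon targets that were not called. They were chosen after the values and matches were seen. The windows of Psmb10 and Tapbp, which were also called and are not shown, hold no match to the core of either element. B2m and Ifitm1 were the members with the largest differences, Psmb8 and Tap1 are antigen-processing genes whose groups did not overlap but which did not pass the test, and Ifit1 and Ifit3 are textbook interferon targets whose mRNA was near the bottom of the arrays. Each line gives the 250 bases before the annotated transcription start, 5′ to 3′ on the strand of the gene, from RefSeq (GRCm38.p6). Capitals mark matches to the ISRE core, which is GAAA, any 2 bases and GAAA again (on the other strand TTTC, any 2 bases and TTTC), or to the GAS core TTCNNNGAA, which reads the same on both strands.
B2m, chr2:122147437-122147686, plus strand: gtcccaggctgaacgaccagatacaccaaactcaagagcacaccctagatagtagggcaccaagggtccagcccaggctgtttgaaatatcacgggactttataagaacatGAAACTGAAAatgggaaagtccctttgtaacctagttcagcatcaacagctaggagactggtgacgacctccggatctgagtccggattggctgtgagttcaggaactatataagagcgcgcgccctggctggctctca
Psmb8, chr17:34197945-34198194, plus strand: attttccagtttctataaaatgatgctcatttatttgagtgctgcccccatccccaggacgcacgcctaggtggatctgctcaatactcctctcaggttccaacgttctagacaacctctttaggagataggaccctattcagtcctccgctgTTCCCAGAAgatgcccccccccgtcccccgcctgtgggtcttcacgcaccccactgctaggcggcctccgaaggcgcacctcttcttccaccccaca
Tap1, chr17:34187306-34187555, plus strand: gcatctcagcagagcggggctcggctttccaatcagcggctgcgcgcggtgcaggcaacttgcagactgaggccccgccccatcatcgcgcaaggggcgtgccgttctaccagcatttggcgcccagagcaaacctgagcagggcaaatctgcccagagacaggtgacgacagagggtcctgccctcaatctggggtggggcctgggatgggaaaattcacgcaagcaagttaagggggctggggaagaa
Ifitm1, chr7:140967826-140968075, plus strand: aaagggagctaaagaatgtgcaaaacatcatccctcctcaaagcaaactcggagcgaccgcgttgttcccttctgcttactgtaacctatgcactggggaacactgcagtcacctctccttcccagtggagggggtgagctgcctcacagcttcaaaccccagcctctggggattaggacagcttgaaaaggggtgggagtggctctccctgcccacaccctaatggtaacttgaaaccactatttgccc
Ifit1, chr19:34640639-34640888, plus strand: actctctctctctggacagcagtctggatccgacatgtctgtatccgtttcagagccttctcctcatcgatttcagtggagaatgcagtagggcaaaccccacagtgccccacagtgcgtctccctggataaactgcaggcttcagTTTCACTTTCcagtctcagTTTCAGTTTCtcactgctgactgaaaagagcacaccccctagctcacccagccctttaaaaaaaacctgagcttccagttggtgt
Ifit3, chr19:34583279-34583528, plus strand: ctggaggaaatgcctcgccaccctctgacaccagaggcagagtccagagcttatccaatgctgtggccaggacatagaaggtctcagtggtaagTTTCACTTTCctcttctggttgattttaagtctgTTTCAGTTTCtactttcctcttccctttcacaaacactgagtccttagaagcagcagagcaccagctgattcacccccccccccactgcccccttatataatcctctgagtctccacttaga

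Ifit1 and Ifit3 each hold 2 ISRE cores in this stretch, B2m holds 1 and Psmb8 holds 1 GAS core, whereas the windows of Tap1 and Ifitm1 hold neither. The Tap1 stretch also serves Psmb9, which is transcribed the other way. The starts of these neighbouring genes are 225 bases apart and their 300-base windows share 275 bases. Over the window from 250 bases before to 50 bases after the start, an ISRE core was found in 14 of the 33 members with a RefSeq promoter entry (42.4%), against 3.44% of 32851 promoters of all genes. A GAS core was found in 10 of the 33 (30.3%), against 8.30% of all promoters. Members were counted once per gene, over all its windows, whereas all promoters were counted window by window. H2-K1, Ifit2, Irf1 and Irf9 have more than 1 window. The ISRE matches lay mostly among the effectors (Bst2, Ifit1, Ifit3, Ifitm2, Ifitm3, Isg15, Oas1a, Oas3 and Rsad2). Among the antigen-presentation genes with a promoter entry, only B2m had one. Tap2 and Nlrc5 have no entry and were not searched. In Bst2 and Ifitm3 an ISRE match and a GAS match overlap. These are matches of letters in the reference genome and were not tested for binding. Only these exact cores were searched, so a window without a match may still hold a variant of either element.

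In the comparison of the groups, 4 of the 37 measured members rose in the shECAD clones and 0 fell at a limma adjusted p below 0.05. Over all 19938 genes 1.90% rose and 1.23% fell, and the share of members that rose was 10.8%. The genes that rose were Ifitm1, B2m, Psmb10 and Tapbp, and 3 of them belong to antigen presentation. At an unadjusted p below 0.05, 11 members were higher and 3 lower (8.96% and 9.07% of all genes), and the fits with array weights and with an intensity trend also called 0 members lower. The median log2 fold change was 0.12 over the members and 0.025 over all genes. Every shECAD clone lay above every control clone in 11 members and below in 4, against 11.1% and 12.5% of all genes. By role, the median was 0.66 in the 8 antigen-presentation genes, 0.14 in the 16 effectors, -0.13 in the 6 sensors and adaptors, and -0.19 in the 7 receptor and transcription factor genes.

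**Figure D1:**
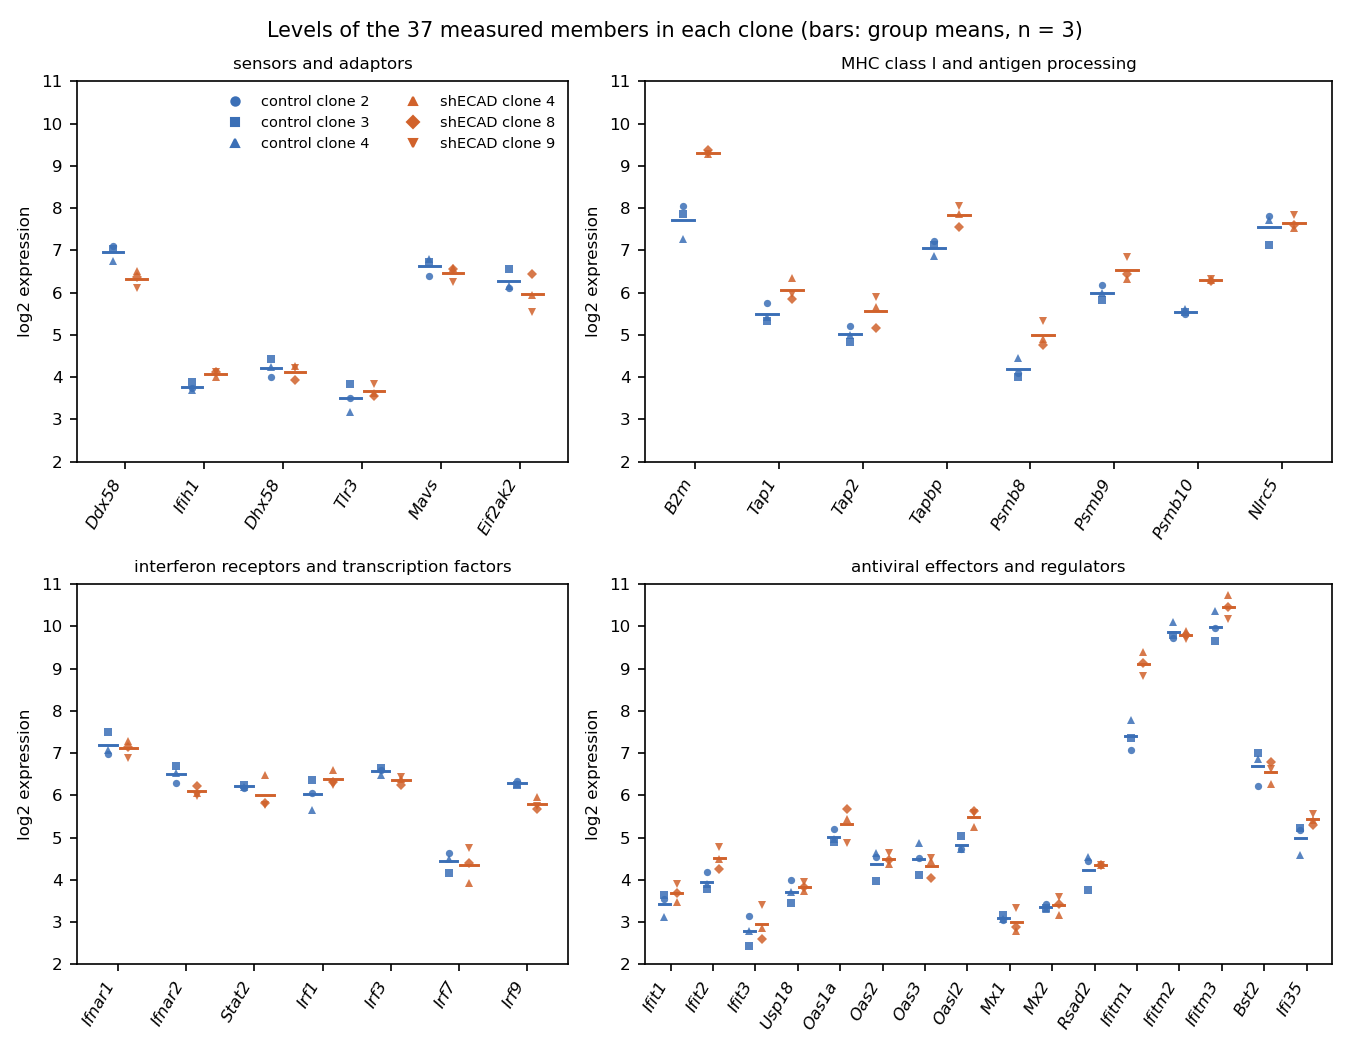
Log2 expression of each of the 37 measured members (x axis, by role) in each of the 6 clones (points, marker shape gives the clone number) with group means as bars, n = 3 per group. B2m, Ifitm1 and Psmb10 show separated groups, with B2m at 7.26 to 8.06 in control clones and 9.28 to 9.38 in shECAD clones, while the groups of most effectors overlap; levels of different genes are not comparable on this scale.

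Of the 8 measured genes of MHC class I and antigen processing, 3 rose (37.5%, against 1.90% of all genes) and 0 fell (against 1.23%). At an unadjusted p below 0.05, 7 were higher and 0 lower (8.96% and 9.07% of all genes). B2m, which encodes the beta-2-microglobulin chain that every class I molecule needs, had log2 levels of 8.06, 7.86 and 7.26 in the controls (clones 2, 3 and 4, in that order here and below) against 9.28, 9.38 and 9.29 in the shECAD lines (clones 4, 8 and 9). The shECAD clones lay close together above a wider control group, and the groups did not overlap. B2m rose 3.00-fold (95% confidence interval 2.19 to 4.11), a log2 fold change of 1.58 ± 0.21 (SE) with a limma adjusted p of 0.00700.

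Psmb10, which encodes a catalytic subunit of the immunoproteasome, the form of the proteasome that cuts peptides suited to class I, was at 5.51, 5.55 and 5.60 in the controls against 6.30, 6.27 and 6.34 with shECAD. Both groups were tight and apart. It rose 1.68-fold (interval 1.35 to 2.08, log2 fold change 0.75 ± 0.14 SE, limma adjusted p = 0.0255). Psmb8, another such subunit, had levels of 4.10, 4.01 and 4.44 in the controls against 4.90, 4.76 and 5.34 with shECAD. The groups did not overlap, but the log2 fold change of 0.82 ± 0.19 (SE) fell just short of the threshold (limma adjusted p = 0.0515) and passed with an intensity trend (0.0478). For Psmb9, the remaining inducible subunit, the values were 6.18, 5.82 and 6.00 against 6.32, 6.44 and 6.84, a log2 fold change of 0.53 that did not pass (limma adjusted p = 0.151). The constitutive subunits that these 3 replace, Psmb5, Psmb6 and Psmb7, were looked up after the values of the members were seen. Their log2 fold changes were -0.06, -0.07 and -0.02, with 95% intervals from -0.46 to 0.35, -0.41 to 0.27 and -0.37 to 0.32.

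Tapbp encodes tapasin, which holds empty class I molecules at the peptide transporter. It read 7.22, 7.12 and 6.86 in the controls against 7.87, 7.56 and 8.06 with shECAD, again without overlap. The rise was 1.70-fold (interval 1.29 to 2.23), and the log2 fold change of 0.76 ± 0.18 (SE) passed narrowly (limma adjusted p = 0.0491). On a further 2 probesets annotated to both Tapbp and the ribosomal protein gene Rps3a1, the differences were 0.15 and -0.06. The transporter itself is made of the products of Tap1 and Tap2. Tap1 was at 5.76, 5.32 and 5.43 in the controls against 6.34, 5.85 and 5.98 with shECAD, so that the groups lay apart by less than 0.1 between shECAD clone 8 and control clone 2. Tap2 lay between 4.84 and 5.20 in the controls and at 5.66, 5.17 and 5.90 with shECAD, where clone 8 fell inside the control range. Neither passed, and the differences were 0.55 for Tap1 and 0.56 for Tap2 on the log2 scale (adjusted p = 0.144 and 0.172 in limma). Tap1, Tap2, Psmb8 and Psmb9 follow one another without another protein-coding gene between them in the MHC region of chromosome 17 in RefSeq, whereas B2m and Psmb10 lie on chromosomes 2 and 8.

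Nlrc5 encodes the transactivator of class I genes, and its probeset overlapped between the groups at 7.80, 7.14 and 7.72 in the controls against 7.52, 7.60 and 7.84 with shECAD (log2 fold change 0.10 ± 0.20 SE, 95% interval -0.34 to 0.54, limma adjusted p = 0.839). The gene has 19 probesets with its symbol alone, whose differences between the group means ran from -0.12 to 0.45 with 16 of 19 positive. These probesets share the same RNA and are not replicates. For the class I heavy chains no value can be given per gene, because both probesets that read H2-K1 and H2-D1 are annotated to both genes and to another locus. One of these shared probesets read 6.94, 6.54 and 6.51 in the controls against 7.15, 7.20 and 7.30 with shECAD, without overlap (log2 fold change 0.55, limma adjusted p = 0.121 in a fit that also held shared probesets). On the other the values were 6.21, 6.33 and 6.07 against 6.28, 6.80 and 6.77, with overlap (0.41, limma adjusted p = 0.279 in the same fit). Neither passed the test, and which heavy chain gene they read cannot be told apart.

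**Figure D2:**
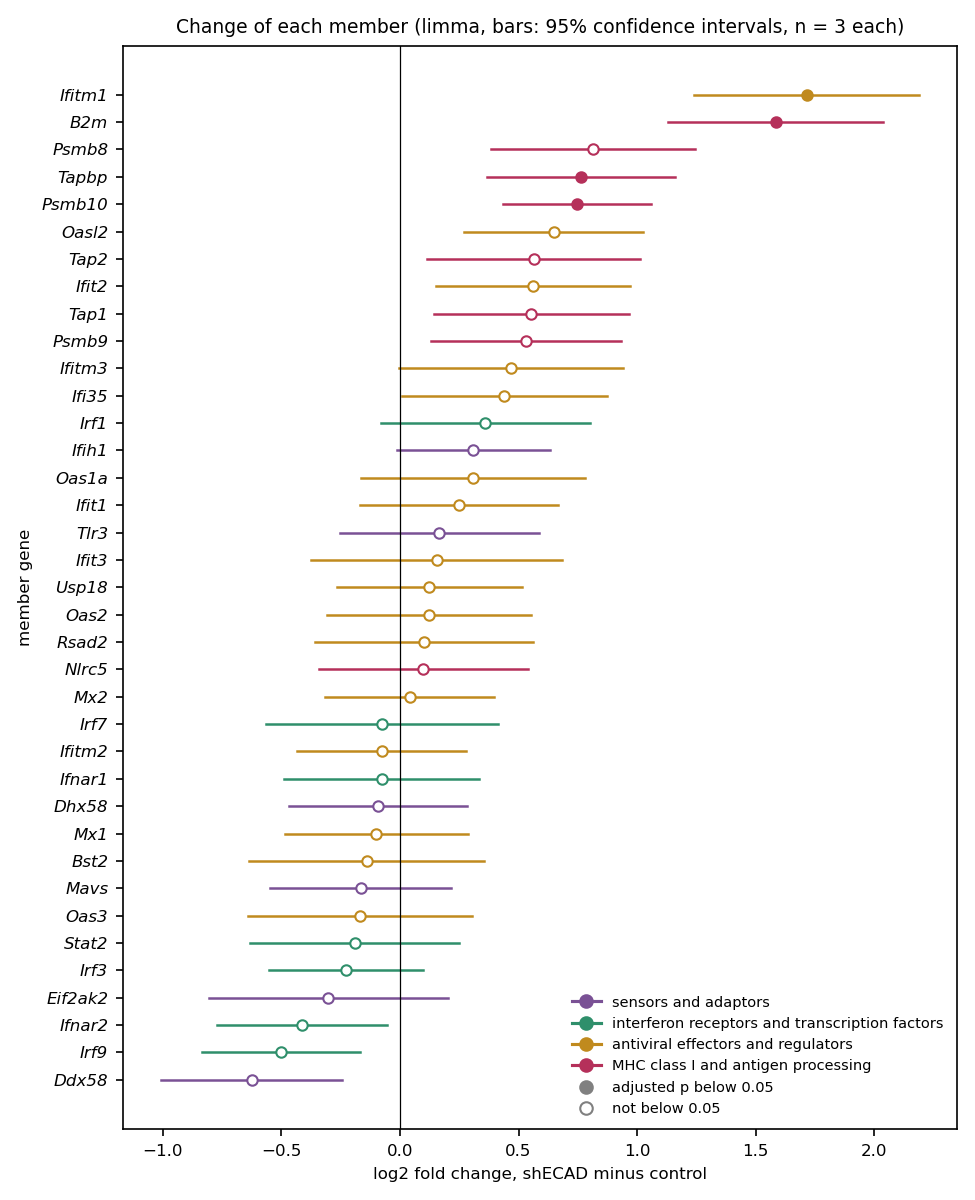
Log2 fold change, shECAD minus control (x axis), of each of the 37 measured members (y axis, ordered by size, coloured by role), with 95% confidence intervals from limma as bars and n = 3 clones per group; filled points have an adjusted p below 0.05. Ifitm1 (1.72) and B2m (1.58) stand apart at the top, 7 of the 8 antigen-presentation genes lie between 0.53 and 1.58, and Ddx58 (-0.63) is the lowest.

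Among the antiviral effectors, 1 of 16 measured genes rose (6.25%, against 1.90% of all genes) and 0 fell (against 1.23%). That gene was Ifitm1, a member of the interferon-induced transmembrane family that is also expressed in primordial germ cells. It read 7.07, 7.35 and 7.78 in the controls against 9.39, 9.13 and 8.83 with shECAD. The groups lay more than 1 log2 unit apart at their nearest points. The rise was 3.28-fold (95% interval 2.36 to 4.56), a log2 fold change of 1.72 ± 0.21 (SE) with a limma adjusted p of 0.00683. A dimmer Ifitm1 probeset gave 7.22, 7.08 and 7.54 against 8.74, 8.15 and 8.19, a difference of 1.08 in the same direction. The order of the control clones differed between B2m and Ifitm1: clone 4 was lowest for B2m and highest for Ifitm1.

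Its neighbours in the gene cluster differed less. Ifitm3, which acts in endosomes, was at 9.96, 9.66 and 10.36 in the controls against 10.76, 10.46 and 10.17 with shECAD, with overlap (log2 fold change 0.47, limma adjusted p = 0.284). Ifitm2 read 9.73, 9.80 and 10.11 against 9.90, 9.81 and 9.70, a log2 fold change of -0.08 (limma adjusted p = 0.845), and its 3 probesets differed by -0.31 to -0.08. After quantile normalization the value of Ifitm2 turned to 0.020. The Ifitm genes are similar in sequence, and how far their probesets read one another was not tested.

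Ifit1, Ifit2 and Ifit3, which did not pass the test, encode proteins that bind viral RNA and translation factors. Ifit2 read 4.19, 3.78 and 3.90 in the controls against 4.50, 4.26 and 4.79 with shECAD, without overlap (log2 fold change 0.56 ± 0.18 SE, limma adjusted p = 0.138). Ifit1 was at 3.56, 3.64 and 3.12 against 3.47, 3.69 and 3.90, and Ifit3 at 3.15, 2.44 and 2.79 against 2.85, 2.59 and 3.40, both with overlapping groups. The differences were 0.25 for Ifit1 and 0.16 for Ifit3 (adjusted p = 0.533 and 0.784 in limma). Both were below the 25th percentile of probesets (3.73 to 4.01) on all 6 arrays, as were Mx1 and Mx2, which encode antiviral GTPases. A small difference at such levels is not evidence of equal amounts. Mx1 and Mx2 had log2 fold changes of -0.10 and 0.04, and Mx2 turned to -0.05 after median centring and -0.04 after quantile normalization.

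Oasl2, of the oligoadenylate synthetase family, whose active members make an activator of RNase L, stood at 4.72, 5.03 and 4.73 in the controls against 5.24, 5.62 and 5.57 with shECAD. The groups did not overlap, and the log2 fold change of 0.65 ± 0.17 (SE) did not pass (limma adjusted p = 0.0709), although it passed with array weights (0.0472). Its relatives Oas1a, Oas2 and Oas3 had log2 fold changes of 0.31, 0.12 and -0.17, with overlapping groups. Ifi35 read 5.17, 5.23 and 4.58 against 5.42, 5.30 and 5.57, without overlap (0.44, limma adjusted p = 0.269). Rsad2, the gene of viperin, Usp18, which removes ISG15 and restrains the receptor, and Bst2, the gene of tetherin, had log2 fold changes of 0.10, 0.12 and -0.14, with adjusted p-values from 0.763 to 0.841 in limma. After quantile normalization the values of Rsad2 and Oas2 turned to -0.02 and -0.0056. Isg15, the ubiquitin-like modifier gene, is read only by a probeset shared with Gm9706, at 3.85, 3.76 and 3.70 in the controls against 3.83, 3.97 and 4.49 with shECAD, and the difference of 0.32 did not pass (limma adjusted p = 0.417 in the fit with shared probesets).

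In limma 0 of the 6 sensors and adaptors were called in either direction (3.12% of all genes). At an unadjusted p below 0.05, 0 were higher and 1 lower (8.96% and 9.07% of all genes). Ddx58, which encodes the RNA sensor RIG-I, was the member with the lowest log2 fold change, at 7.11, 7.03 and 6.74 in the controls against 6.52, 6.38 and 6.10 with shECAD. The shECAD clones all lay below the control clones, but the log2 fold change of -0.63 ± 0.17 (SE) did not pass (limma adjusted p = 0.0831). When the dimmer genes were left out of the fit, it passed narrowly (adjusted p = 0.0496). Ifih1, the gene of the sensor MDA5, read 3.75, 3.87 and 3.70 against 4.00, 4.12 and 4.13, without overlap, close to the 25th percentile of the arrays (log2 fold change 0.31, limma adjusted p = 0.302). Eif2ak2, the gene of the RNA-activated kinase PKR, was at 6.11, 6.56 and 6.16 against 5.95, 6.43 and 5.55, and Mavs, the adaptor gene of both RNA helicases, at 6.38, 6.72 and 6.79 against 6.58, 6.56 and 6.26. Their log2 fold changes were -0.30 and -0.17, with overlapping groups. Tlr3, the endosomal RNA sensor gene, read 3.51, 3.84 and 3.19 against 3.62, 3.56 and 3.84, below the 25th percentile on 5 of the 6 arrays (0.17), and Dhx58 differed by -0.09.

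In the group of receptor and transcription factor genes, 6 of 7 log2 fold changes were below 0, against 9230 of 19938 over all genes. The signs of Ifnar1 and Irf7 turned in other settings. In limma 0 of the 7 passed the test (3.12% of all genes). At an unadjusted p below 0.05, 0 were higher and 2 lower (8.96% and 9.07% of all genes). Irf9, a DNA-binding partner of STAT2, read 6.35, 6.24 and 6.27 in the controls against 5.95, 5.67 and 5.74 with shECAD. The groups did not overlap, with a log2 fold change of -0.50 ± 0.15 (SE, 95% interval -0.83 to -0.17, limma adjusted p = 0.107). Stat2 was at 6.18, 6.24 and 6.21 against 6.48, 5.82 and 5.77, with shECAD clone 4 above and the other two below the control clones (log2 fold change -0.19, limma adjusted p = 0.670). Of the 2 receptor chains, Ifnar2 stood at 6.29, 6.69 and 6.53 in the controls against 6.07, 6.22 and 5.99 with shECAD, without overlap (-0.41, limma adjusted p = 0.213). Ifnar1 read 6.99, 7.50 and 7.08 against 7.29, 7.15 and 6.89, with overlap (-0.08, limma adjusted p = 0.867), and it turned to 0.030 after quantile normalization.

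The other interferon regulatory factors were not called either. Irf3, the factor activated by the sensors, was at 6.61, 6.66 and 6.49 against 6.39, 6.25 and 6.43, a log2 fold change of -0.23 without overlap (limma adjusted p = 0.455). Irf7, itself an interferon target that amplifies the response, had overlapping groups and a log2 fold change of -0.08 (limma adjusted p = 0.891). Irf1, which interferon gamma induces and which acts on antigen-processing genes, was the only one of the 7 above 0, at 6.05, 6.37 and 5.66 in the controls against 6.60, 6.32 and 6.25 with shECAD. Its groups overlapped (log2 fold change 0.36, limma adjusted p = 0.377). Two-sided exact permutation tests of the members without overlap between the groups gave p = 0.1, the smallest that 3 clones against 3 allow.

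Genes of these pathways outside the member list were counted in the same way. These lists were written with earlier results of these data known, so their shares are a description and no independent support. Of 64 other measured interferon and antiviral genes, 4 rose and 0 fell, or 6.25% and 0% against 1.90% and 1.23% of all genes. At an unadjusted p below 0.05, 9 were higher and 3 lower (8.96% and 9.07% of all genes). The fits with array weights and with an intensity trend also called 0 lower. Irgm1, an immunity-related GTPase gene, read 4.73, 5.12 and 4.10 in the controls against 6.34, 6.37 and 6.02 with shECAD and rose 3.00-fold (1.59 ± 0.24 SE on the log2 scale, limma adjusted p = 0.0120). Gbp3, a guanylate-binding protein gene, was at 4.08, 3.98 and 3.79 against 5.38, 5.07 and 5.11 and rose 2.36-fold (1.24 ± 0.16, limma adjusted p = 0.00704). Neither pair of groups overlapped. In control clone 4, Gbp3 lay below the 25th percentile of that array (3.85). Jak2, a kinase of the interferon gamma receptor, was at 4.85, 4.88 and 4.67 against 5.46, 6.05 and 5.97 and rose 2.04-fold (limma adjusted p = 0.0209). Lgals3bp, which encodes a secreted binding protein, was at 5.54, 5.22 and 4.77 against 6.22, 6.17 and 6.21 and also rose 2.04-fold (limma adjusted p = 0.0271). Neither of these overlapped between the groups.

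The receptor and kinase genes of type I and type II signalling were then set side by side, after their values were seen. Ifngr2, a chain of the interferon gamma receptor, had a log2 fold change of 0.82 (limma adjusted p = 0.0680) and Jak1, the kinase of both receptors, one of 0.61 (0.0874), both without overlap. The other gamma receptor chain, Ifngr1, differed by 0.27 with overlapping groups (limma adjusted p = 0.558). Tyk2, the kinase of the type I receptor, had one of -0.53 (limma adjusted p = 0.0889), with every shECAD clone below the control clones. The interferon genes themselves were low. Ifna4 was below the 25th percentile on 6 of 6 arrays, and Ifnb1 and Ifng each on 4, and their log2 fold changes were 0.11, 0.05 and 0.25 with limma adjusted p-values of 0.819, 0.909 and 0.435. The groups of Ifng did not overlap, at 3.84, 3.54 and 3.72 in the controls against 3.92, 3.89 and 4.05 with shECAD.

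Of 29 other measured antigen-presentation genes, 2 rose and 0 fell (6.90% and 0%, against 1.90% and 1.23% of all genes). This list, too, was written with earlier results of these data known. The median of the list was 0.038, close to that of all genes. The list is mixed and also holds MHC class II genes such as H2-Aa and Cd74. It further holds Calr, Canx and the constitutive subunits Psmb5, Psmb6 and Psmb7, so its median is not one of class I genes alone. Mr1, a class I-like gene that presents microbial metabolites, read 4.50, 4.26 and 3.64 in the controls against 5.24, 5.36 and 5.32 with shECAD and rose 2.26-fold (limma adjusted p = 0.0209). Its value in control clone 4 lay below the 25th percentile of that array (3.85). Erap1, the peptidase that trims peptides for class I, was at 4.55, 5.26 and 4.55 against 5.64, 5.58 and 5.97 and rose 1.92-fold (limma adjusted p = 0.0465). Psme1 and Psme2, which encode the proteasome activator subunits induced with the immunoproteasome, differed by 0.40 and 0.68 on the log2 scale without overlap and did not pass (adjusted p = 0.199 and 0.185 in limma). At an unadjusted p below 0.05, 5 of these genes were higher and 1 lower (8.96% and 9.07% of all genes). The fits with array weights and with an intensity trend called 0 lower.

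**Figure D3:**
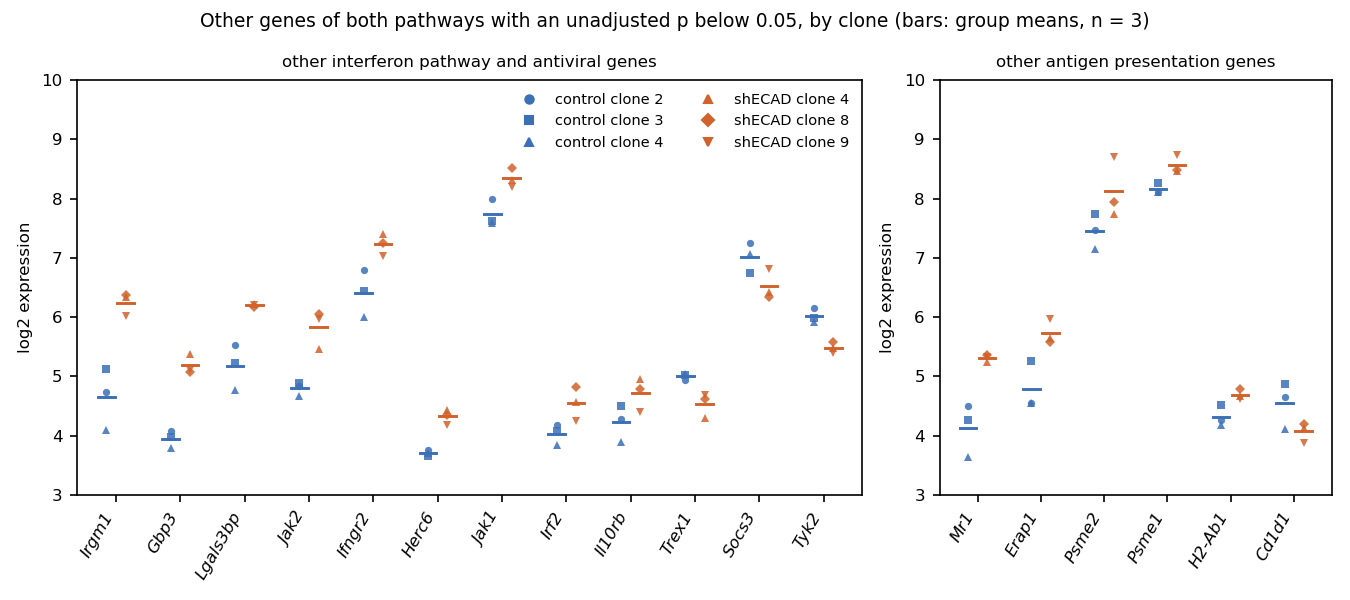
Log2 expression in each clone (points, marker shape gives the clone number) of the genes outside the member list with an unadjusted p below 0.05, 12 of the other interferon pathway genes (left) and 6 of the other antigen-presentation genes (right), with group means as bars and n = 3 per group. Irgm1 lies at 4.10 to 5.12 in control and 6.02 to 6.37 in shECAD clones, and Mr1 at 3.64 to 4.50 and 5.24 to 5.36; the genes were chosen by their p, so the separation is a description.

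Fibroblast markers also differed between the groups. The mean log2 level of the 8 antigen-presentation members came to 6.23, 5.96 and 6.04 in the controls against 6.77, 6.63 and 6.95 with shECAD. Over 23 measured fibroblast and feeder cell markers the mean was 6.63, 6.20 and 5.62 against 7.32, 7.59 and 7.31. Of the 23, 14 rose (60.9%, against 1.90% of all genes) and 0 fell (against 1.23%). Among the control clones the fibroblast mean was highest in clone 2 and lowest in clone 4. Among the called genes B2m, Tapbp, Gbp3, Lgals3bp and Mr1 shared this order of the control clones. Ifitm1, Psmb10, Irgm1, Jak2 and Erap1 did not. The order of the 2 list means differed within both groups. With so few clones such orders can arise by chance, and some rest on small gaps. The control values of Psmb10 lay between 5.51 and 5.60, and 2 of the shECAD fibroblast means were 7.32 and 7.31. The orders were not tested, and nothing about the source of the rise is read from them. The part of fibroblast-like or feeder cells in the rise of these genes was not tested. In these bulk samples, more cells of a type and more mRNA per cell cannot be told apart.

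**Figure D4:**
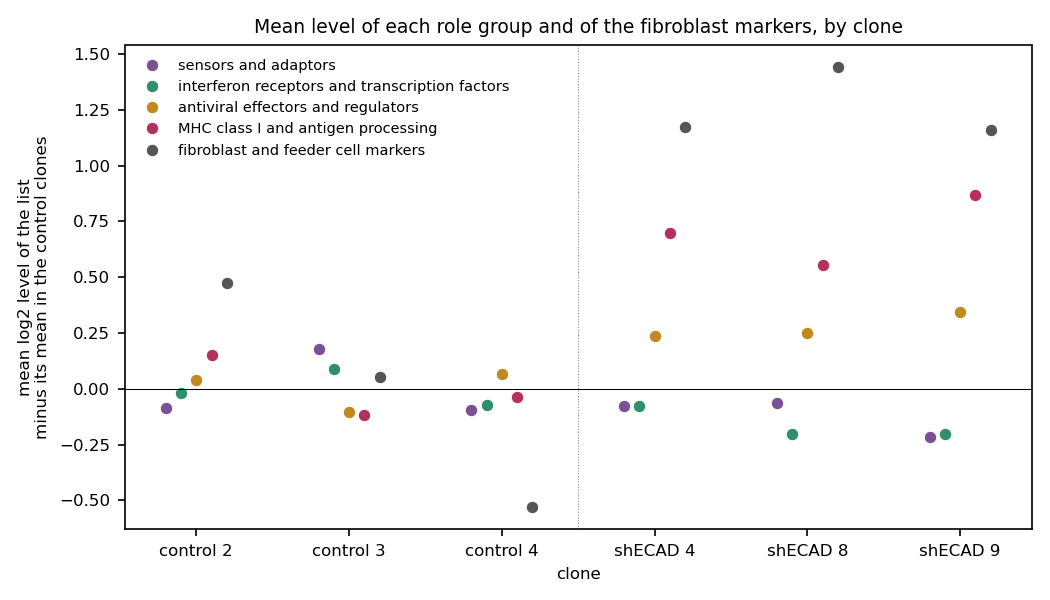
Mean log2 level of each role group of members and of the 23 fibroblast and feeder cell markers in each clone (x axis), minus the mean of the 3 control clones (y axis, log2 units); each point is 1 list in 1 clone. The antigen-presentation genes run from 5.96 to 6.23 in control and from 6.63 to 6.95 in shECAD clones before this subtraction, and the fibroblast markers from 5.62 to 6.63 and from 7.31 to 7.59.

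The mean level of 13 measured immune cell markers was 4.56 to 4.87 in control and 4.58 to 4.67 in shECAD clones, and 0 rose and 1, Laptm5, fell (8.88, 8.14 and 8.87 against 7.51, 7.30 and 5.71). The pan-leukocyte gene Ptprc was below the 25th percentile on 5 of the 6 arrays, with a log2 fold change of -0.05. At an unadjusted p below 0.05, 1 immune marker was higher and 2 were lower. Over all genes these shares were 8.96% and 9.07%, which also hold beside the endothelial and pluripotency counts that follow. In limma 0 of 7 endothelial markers passed in either direction (1 higher and 1 lower at an unadjusted p below 0.05), with a mean level of 4.85 to 5.08 against 4.85 to 4.94. The 14 pluripotency markers averaged 9.51 to 9.82 in control and 9.02 to 9.49 in shECAD clones, and 0 passed in limma (0 higher and 5 lower at an unadjusted p below 0.05). Of the 14, 11 had a log2 fold change below 0 (9230 of 19938 over all genes), with a median of -0.39. In 4 of the 14 every shECAD clone lay below every control clone (12.5% of all genes). Pou5f1 and Nanog, which define the labelled cell type, averaged 10.64 and 10.37 in control and 10.59 and 10.40 in shECAD clones. These 2 were picked after their values were seen and do not stand for the list. Cdh1, the target of the shRNA, fell to 22.9% of control (limma adjusted p = 0.00683). The arrays had medians from 5.11 to 5.30, and 623 of 19938 genes (3.12%) were called, 378 higher and 245 lower, against 298 higher and 383 lower after median centring.

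Only Ifitm1 and B2m held their calls with any 1 clone left out, with limma adjusted p-values up to 0.0286 and 0.0334, both without shECAD clone 8. Psmb10 and Tapbp lost theirs without any 1 of the 6 clones, with adjusted p-values from 0.0546 to 0.0911 and from 0.0635 to 0.184, so that the 4 rises became 2 in each case, and Tapbp also lost its call after median centring, after quantile normalization and with shared probesets in the fit (adjusted p = 0.0578, 0.0514 and 0.0625). Among the other genes Gbp3 held its call without any 1 clone, and Irgm1 lost it without shECAD clone 8 (adjusted p = 0.0507). Jak2 lost its call without control clone 4 or shECAD clones 8 or 9, Lgals3bp in all cases but control clone 2, Mr1 in all but control clones 2 and 3, and Erap1 in all but control clone 3.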

How the data were processed

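Total RNA of 3 control and 3 shECAD iPS clones was measured on 1 array each. The values the authors deposited are log2 levels of probesets, and the submitters' processing notes name Partek and RMA. Their versions, settings and build are not stated in the labels. RMA usually equalises arrays and compresses differences near background, and the arrays here still differed in median (5.11 to 5.30). Of 28853 probesets, 21789 carry 1 symbol, 1621 several and 5443 none, and the brightest 1-symbol probeset (mean over 6 arrays) stood for each gene. The 19938 genes were fitted together with limma 3.58.1 (lmFit and eBayes, control and shECAD as groups, no covariate), with Benjamini-Hochberg adjustment over all and a threshold of 0.05. Intervals are 95% intervals from that fit. Single members were also given an exact permutation test over 20 labellings. Levels below an array's 25th percentile of probesets are called low. All members are counted. Clone values follow a rule: called members, the 4 largest differences per role, the receptor, Stat2, Irf9, B2m, Nlrc5 and the heavy chains, and the called genes of the other interferon and antigen-presentation lists. The rule also covers called fibroblast markers, which are given here only as counts and means. Tap1, Tap2, Psmb9, Ifit1, Ifit3, Ifitm2, Ifi35, Isg15, Mavs and Ifng, and the values of Psme1, Psme2, Ptprc, Pou5f1 and Nanog, were added after their values were seen. The members and gene lists were chosen with earlier results of these data known. Tested on simulated data for this comparison over 19938 genes, the fit recovered 2% of genes changed by 0.5 log2 units, 56% by 1 and 96% by 2. In the simulation 50 genes were changed at each size and the noise of each gene was independent. Recovery in the real data, where 623 genes were called, can differ. Alternatives were other scalings, probeset rules, filters and variance models, another threshold, and each clone left out. Promoters are from RefSeq (GRCm38.p6), with entries for 33 of the 40 genes.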

Additional observations from a re-analysis of the deposited data

How the results depend on the processing

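With 3 clones per group, only changes of about 1 log2 unit or more were recovered in most simulated cases, and smaller ones can be missed. The 4 members called higher became 2 to 2 with any 1 clone left out. Members called lower went from 0 to 1 when genes below the median level were left out and at an adjusted p below 0.1, and other interferon genes called lower also went to 1 in both. The median of the members, 0.12, was 0.0335 after median centring, 0.0566 after quantile normalization, -0.0764 with only brighter genes, 0.0379 with array weights and 0.0282 (without control clone 3) to 0.22 (without control clone 2) with a clone left out. Over all genes 623 calls became 1067 with array weights, 1278 at an adjusted p below 0.1 and 146 (without control clone 4) to 543 with a clone left out. Other interferon genes called higher were 7 with array weights, 7 at an adjusted p below 0.1 and 1 (without shECAD clone 8) to 5 with a clone left out. Other antigen-presentation genes called higher were 1 after median centring, 1 after quantile normalization, 1 with shared probesets, 0 with only brighter genes and 0 to 2 with a clone left out. Signs turned only in members that were not called. After median centring Mx2 was -0.0503. After quantile normalization Ifnar1 was 0.0301, Oas2 -0.0056, Mx2 -0.0386, Rsad2 -0.0226 and Ifitm2 0.0204. With array weights Ifnar1 was 0.0379, Oas2 -0.0099, Mx2 -0.0199, Rsad2 -0.0057 and Nlrc5 -0.0222. With a clone left out, Irf7 ran from -0.27 to 0.14, Dhx58 from -0.20 to 0.0064, Ifnar1 from -0.18 to 0.0803, Ifit3 from -0.0709 to 0.33, Usp18 from -0.0113 to 0.27, Oas2 from -0.0829 to 0.25, Rsad2 from -0.15 to 0.25, Bst2 from -0.37 to 0.0094, Nlrc5 from -0.11 to 0.22, Oas3 from -0.36 to 0.0137, Ifitm2 from -0.15 to 0.037, Mx1 from -0.26 to 0.0084 and Mx2 from -0.0583 to 0.16. The cause of these shifts was not tested. The alternatives for the 2 lists outside the members were chosen after seeing the data. No paired analysis was possible because nothing in the labels matches a control clone to an shECAD clone.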
